A study of Mus musculus with 8 samples.

Results

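The genes described here encode the proteins of the cytosolic ribosome. They were taken as the rows of the deposited expression table whose symbol is Rpsa, Rplp0, Rplp1, Rplp2 or an Rpl or Rps name, leaving out the ribosomal S6 kinases and named pseudogenes. Of 41128 rows, 52 carried such a symbol, and 50 of these had a mean of at least 10 normalized counts over all libraries, among 16590 genes at that level. The lowest row inside that limit was Rps4l with a mean of 76.2 normalized counts. Rpl39l with a mean of 1.38 and Rpl10l, which was 0 in every library, fell outside it. That limit used the level alone and no difference between genotypes, but the group of genes was chosen with earlier results of these data known.

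RNA came from the left ventricle of FVB mice aged 8 to 12 weeks. The 4 knockout animals carried a CRISPR-made deletion in the second exon of Nppb, which encodes brain natriuretic peptide, a heart hormone released under load. The 4 wild-type animals were their littermates, and the labels name no treatment. Total RNA was sequenced with a stranded kit, so every cell type of the ventricle contributed. The wild-type libraries had 2713, 1840, 2761 and 4619 normalized counts of Nppb, and the knockouts 4.13, 1.54, 4.09 and 2.25, both in the order of their replicate numbers, as for all such series of values here. Nppb fell by 9.53 on the log2 scale (limma adjusted p = 4.63e-05). The gene reads per library ran from 20284865 to 34742840, and all 12 cardiomyocyte markers were present. Of 6 atrial markers, Bmp10, Myl7 and Sln were at 0 in some libraries, and 3 of the 6 had a mean of at least 10. Among the atrial markers, Stard10 was at 218 ± 16.1 in wild types and 193 ± 15.2 in knockouts (SD, n = 4). Myl4 was at 26.3 ± 8.62 and 35.4 ± 10.6.

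The ribosome joins a large subunit, which forms peptide bonds, to a small subunit, which reads the messenger RNA. Each subunit is ribosomal RNA held together by proteins that are, with few exceptions, needed in equal numbers, and their genes are among the most active in any cell. Their messenger RNAs begin with a run of pyrimidines, the 5′ terminal oligopyrimidine tract, through which the kinase complex mTORC1 and the RNA-binding protein Larp1 set how much of them is translated. Mammalian genomes also hold many processed copies of these genes, made by reverse transcription of the messenger RNA. Heart and skeletal muscle have a large-subunit protein of their own, Rpl3l, which stands in for Rpl3.

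The symbols did not cover the ribosome completely. Of the 50 rows, 43 were protein-coding ribosomal protein genes under their own name, and Rps4l was annotated as a transcribed processed pseudogene under its own name. The other 6 rows held a copy at another locus that the table listed under the parent's symbol. These were Gm10275 and Gm9396, listed as Rpl12, Rpl27-ps3, listed as Rpl27, Gm2000, listed as Rpl35, Rps26-ps1, listed as Rps26, and Gm10076, listed as Rpl41. A further 35 protein-coding ribosomal protein genes, among them Rpl3, Rpl5, Rps6 and Rplp1, had no symbol in the table and were found by their Ensembl gene ID. They are given beside the rows of the rule, so that 78 protein-coding genes were measured in all.

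The sequences of the paralogs and copies show which loci reads of 125 bases could tell apart. The first 125 coding bases of 3 parents and their relatives follow, with every base that differs from the parent in capitals. Rpl3 lies at chr15:80077791-80091868 on the minus strand and Rpl3l at chr17:24727820-24736143 on the plus strand (mm10).
Rpl3: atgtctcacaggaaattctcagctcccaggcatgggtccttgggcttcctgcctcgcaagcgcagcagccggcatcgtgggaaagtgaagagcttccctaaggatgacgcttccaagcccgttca
Rpl3l: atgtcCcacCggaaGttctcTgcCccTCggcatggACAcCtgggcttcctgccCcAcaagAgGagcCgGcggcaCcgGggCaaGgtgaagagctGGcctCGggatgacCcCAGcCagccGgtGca
Rpl35: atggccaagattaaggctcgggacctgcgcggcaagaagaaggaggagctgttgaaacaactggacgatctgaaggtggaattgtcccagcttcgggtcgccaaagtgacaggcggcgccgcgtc
Gm2000: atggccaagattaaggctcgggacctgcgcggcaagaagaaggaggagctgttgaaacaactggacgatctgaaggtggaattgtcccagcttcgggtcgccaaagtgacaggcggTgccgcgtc
Rps26: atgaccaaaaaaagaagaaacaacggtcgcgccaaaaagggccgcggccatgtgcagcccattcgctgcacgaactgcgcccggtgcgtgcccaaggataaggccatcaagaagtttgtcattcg
Rps26-ps1: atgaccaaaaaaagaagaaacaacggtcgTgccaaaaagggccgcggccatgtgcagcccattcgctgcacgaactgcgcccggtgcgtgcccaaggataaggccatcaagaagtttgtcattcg

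Rpl3l differed from Rpl3 at 32 of these 125 positions and was identical at 74.1% of the 1209 coding bases of Rpl3. No window of 125 bases of the Rpl3l messenger RNA was found in any other annotated transcript. Gm2000 differed from Rpl35 in this stretch by C117T, counted from the A of the start codon with the parent's base first, and was identical at 99.7% of 369 coding bases. Rps26-ps1 differed from Rps26 by C30T and was identical at 99.4% of 345 coding bases. Gm10275 matched all 495 coding bases of Rpl12, and Rpl27-ps3 matched all 408 of Rpl27. How the authors counted reads that fit several loci was not given in the sources, so the rows of such copies and their parents are uncertain.

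The start sites of a few genes show the pyrimidine tract. RefSeq start windows of GRCm38.p6, the same assembly as mm10, are printed from 12 bases before the start, on the gene's strand, with the tract in capitals where there is one. The windows are chr4:86857350-86857379 for Rps6, chr2:39005114-39005143 for Rpl35, chr17:27635227-27635256 for Rps10 and chr17:24727814-24727843 for Rpl3l.
Rps6: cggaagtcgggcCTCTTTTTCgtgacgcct
Rpl35: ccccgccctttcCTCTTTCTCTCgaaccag
Rps10: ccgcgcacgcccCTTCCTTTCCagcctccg
Rpl3l: tgttctagctctgtcatttgacctctggtg
Rps6, Rpl35 and Rps10, printed as examples with a run, began with C and 9, 11 and 10 pyrimidines. The printed Rpl3l window had no such run at its start, and neither did another RefSeq start of Rpl3l. Most matched starts of ribosomal protein genes lacked one too, as the counts below show, so its absence does not set Rpl3l apart. A C at the start in a run of at least 5 pyrimidines was found at 6 of 42 RefSeq starts (14.29%) of 34 matched genes of the rule. The same was true of 7 of 28 starts (25%) of 24 genes found by ID and of 2.51% of all 32851 RefSeq starts. The motif CCGGAAGT, searched on both strands of the 300 bases around the start, was in 19.05% of the starts of genes of the rule, in 14.29% of those of genes found by ID and in 3.89% of all. AAGATGGC, searched likewise, was in 4.76%, 17.86% and 2.75%. These are matches of letters to annotated starts, which can lie a few bases or more from the true ones. For Rps10 the RefSeq start was at 27635244, whereas the gene in the GENCODE annotation begins at 27636669.

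No ribosomal protein row passed the test between knockout and wild-type ventricles. With limma on log2(normalized count + 1) and Benjamini-Hochberg adjustment over all 16590 genes at a threshold of 0.05, 0 of 50 rows were called, where 0.0121% of all genes (2 of 16590) were. At an unadjusted p under 0.05, 2 of the 50 (4.0%) stood against 6.26% of all genes. On the recovered reads, edgeR called 0 and DESeq2 called 0 of the 50, each with 2 rows at an unadjusted p under 0.05. DESeq2 gave Rps4l no adjusted p. Of all genes, edgeR called 0.0121% and DESeq2 0.139%, and 6.31% and 4.57% had an unadjusted p under 0.05. The authors' deposited table listed 51 of the 52 rows, gave 48 of them an adjusted p, and held none under 0.05.

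The estimates lay more often above 0 than below. The log2 fold change, knockout over wild type, was above 0 in 39 of the 50 rows (78%), where 50.9% of all tested genes were above 0. Its median was 0.026, or 1.85%, beside 0.002 for all genes, and the single values ran from -0.13 for Rpl3l to 0.27 for Rps4l. Of the 29 large-subunit rows 24 were above 0, with a median of 0.033, and of the 21 small-subunit rows 15 were, with a median of 0.026. The 35 genes found by ID gave 27 above 0 and a median of 0.032. Of these, 0 were called by limma, edgeR or DESeq2, and 2 had an unadjusted p under 0.05 in each tool. DESeq2 gave Rpl29 and Rps2 no adjusted p. Mitochondrial ribosomal proteins, which serve another ribosome, gave 48 of 76 above 0 and a median of 0.023. Of 2210 tested genes with under 1000 exonic bases, 55.4% were above 0, and their part in the ribosomal protein count was not tested.

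**Figure D1:**
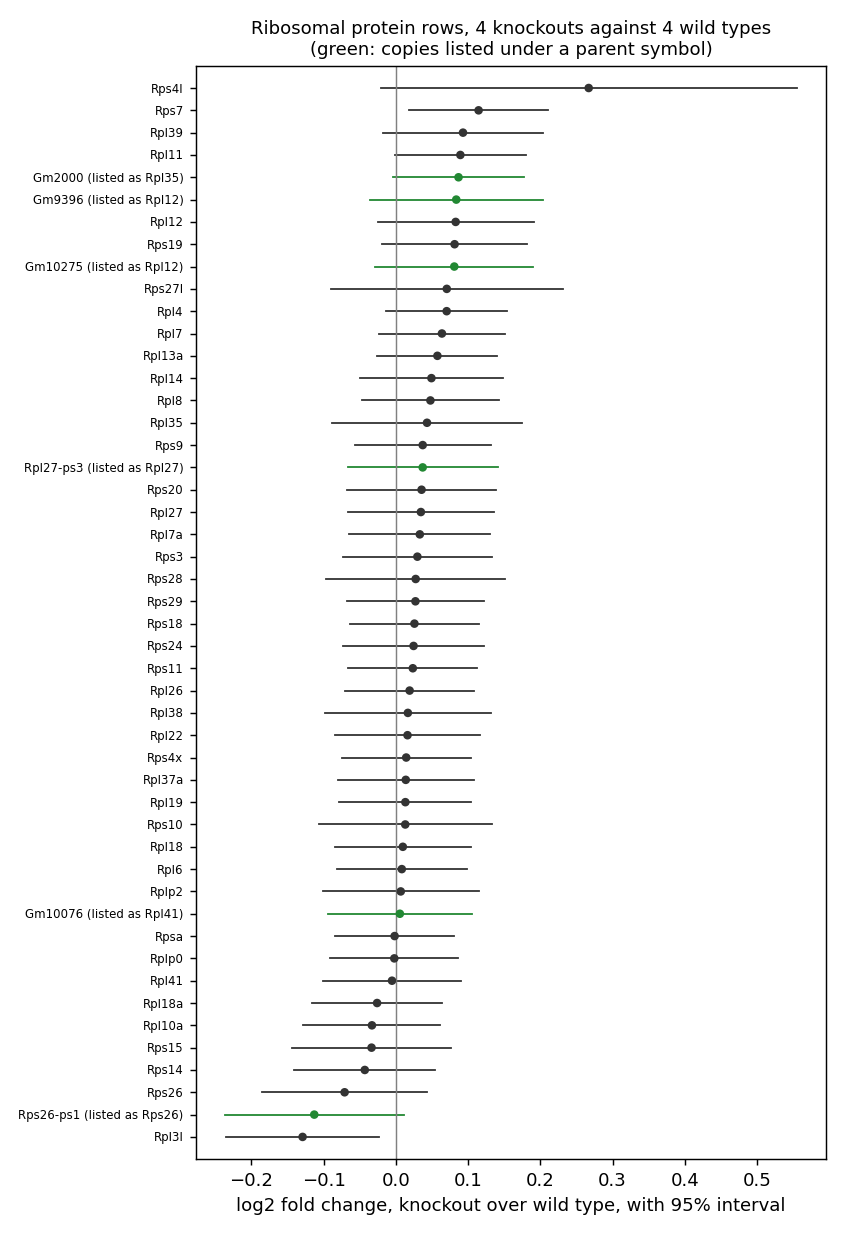
Log2 fold change of 48 of the 50 ribosomal protein rows on the horizontal axis, knockout over wild type, with its 95% interval from limma (n = 4 per group); green marks the 6 copies listed under a parent's symbol. Most points lie within 0.1 of 0, with 38 above it, and Rps4l has the widest interval.

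The precision of these genes was high. The median coefficient of variation over the 8 libraries was 3.88%, beside 9.84% for all tested genes and 4.92% for genes with a mean of 1000 to 8000 normalized counts, and 36 of the 50 rows were under 5%. The 95% interval of the fold change lay within 10% of no change for 27 rows and within 20% for 49. Rps4l was the row outside 20%. In whole tissue, fewer cells of a type and less RNA per cell cannot be told apart, so all values are those of the ventricle and not of its myocytes.

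Rpsa and the proteins of the stalk, which recruits translation factors to the large subunit, overlapped between the genotypes. Rplp0, the base of the stalk, had 7176, 7400, 7389 and 7111 normalized counts in wild types and 7679, 7192, 7177 and 6999 in knockouts. The groups overlapped fully, with the highest and the lowest value both in knockouts. Rplp2, with a coefficient of variation of 4.73%, was at 1940 ± 137 (SD, n = 4) in wild types and 1946 ± 32.1 in knockouts, and its dimer partner Rplp1, found by ID, at 2746 ± 64.4 and 2685 ± 119. Rpsa, a small-subunit protein also known as a laminin receptor, was at 5086, 5219, 5224 and 5056 in wild types and 5024, 5139, 5277 and 5122 in knockouts. Its coefficient of variation of 1.74% was the lowest of the 50 rows.

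Rpl3 and its muscle paralog Rpl3l had estimates of opposite sign. Both help to shape the peptidyl transferase centre, and a ribosome holds one or the other. Rpl3l had 2217, 2057, 2410 and 2230 normalized counts in wild types and 2111, 2005, 1976 and 2048 in knockouts. The groups overlapped, since wild-type replicate 2 lay below knockout replicate 1. Rpl3 had 2149, 2089, 2058 and 2195 in wild types and 2257, 2465, 2377 and 2452 in knockouts, with every knockout above every wild type. Groups that did not overlap in this direction were found in 2.03% of all tested genes, and in either direction in 3.76%. The log2 fold change was -0.13 ± 0.050 (SE) for Rpl3l and 0.17 ± 0.045 for Rpl3, and neither passed limma's test (adjusted p of 0.753 and 0.544).

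The ratio of Rpl3 to Rpl3l was 0.969, 1.02, 0.854 and 0.984 in wild types and 1.07, 1.23, 1.2 and 1.2 in knockouts. All knockouts were above all wild types. An exact two-sided permutation test, added after the data had been examined, gave p = 0.0286, the smallest that 70 assignments can give. Adjusted by Benjamini-Hochberg over the 3 paralog pairs compared it was 0.0857, which missed the threshold. In this design a pair could pass only if another pair also reached the smallest p. The miss therefore does not show that the ratio was unchanged. The cardiomyocyte markers, genes of the cells that make Rpl3l, were above 0 in 1 of 12, with a median of -0.037. Their summed level was 2975000 to 3168000 in wild types and 2829000 to 3115000 in knockouts, and their part in the ratio was not tested. Of the Rpl3 windows of 125 bases, 73.6% also occur in Rpl3-ps1, a processed copy on the X chromosome. Rpl3-ps1 held 0.994 to 1.01 times the Rpl3 value in each library and Rpl3-ps2, in which 15.6% of the Rpl3 windows occur, 0.682 to 0.718 times. In all, 74.9% of the Rpl3 windows occur in some other gene, and how far the loci share reads was not tested.

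**Figure D2:**
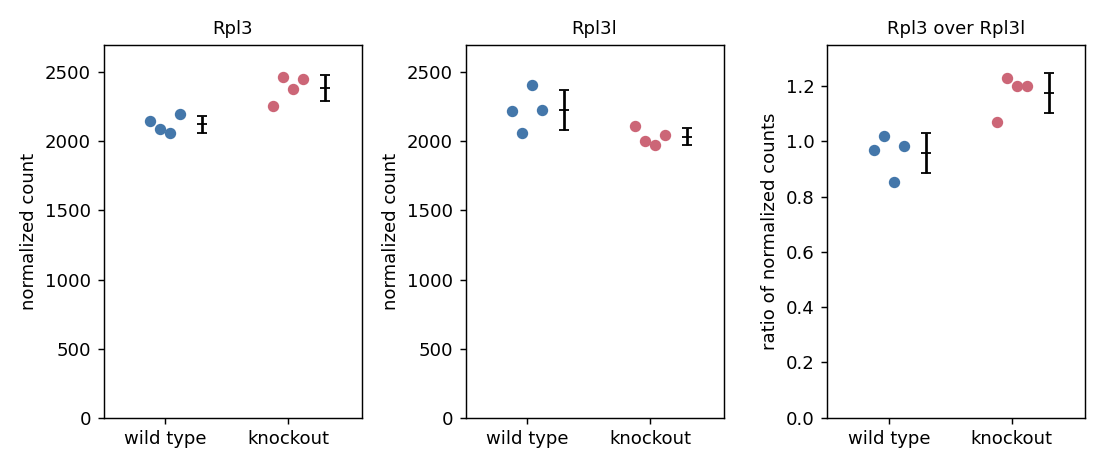
Normalized counts of Rpl3 and Rpl3l and their ratio in each library, as points for 4 wild types and 4 knockouts, with mean and SD as bars; all vertical axes start at 0. Rpl3 and the ratio do not overlap between the groups, whereas Rpl3l does.

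The other paralogs were less abundant than their partners. Rps27l, a stress-inducible relative of Rps27, had 370, 438, 365 and 431 normalized counts in wild types and 404, 402, 425 and 448 in knockouts, with the groups overlapping. The ratio of Rps27l to Rps27 was 0.198 ± 0.026 and 0.211 ± 0.0202 (SD, n = 4; exact permutation p = 0.486, adjusted 0.486). Rps4l had 64.8, 63.8, 74.5 and 72.6 in wild types and 88.3, 80.3, 94.0 and 71.0 in knockouts. Of the knockouts, 3 lay above all wild types and knockout replicate 4 lay among them. The ratio of Rps4l to its X-linked relative Rps4x was 0.0178 ± 0.00123 and 0.0213 ± 0.00237 (SD, n = 4; exact permutation p = 0.0857, adjusted 0.129). Rps4x itself was at 3874 ± 163 and 3910 ± 40.5. Rpl10l and Rpl39l, known from the testis, were at 0 in every library and at 0 to 3.05 normalized counts. Their partners were abundant, with Rpl39, which lines the exit tunnel, at 1066 ± 53.3 and 1136 ± 50.3, and Rpl10, which joins the large subunit last, at 3576 ± 247 and 3726 ± 262.

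Among the large-subunit rows of the rule under their own name, the groups did not overlap for Rpl11 only. Rpl11, which binds 5S ribosomal RNA together with Rpl5 and restrains Mdm2 when ribosomes fail to assemble, had 2051, 2021, 2009 and 1925 normalized counts in wild types and 2211, 2091, 2135 and 2082 in knockouts. Knockout values began just above the highest wild-type value, and the log2 fold change was 0.089 ± 0.043 (SE, adjusted p = 0.796 in limma). Of the 35 genes found by ID, 2 were separate in the same direction, Rpl3 and Rpl15, where 2.03% of all tested genes were. Rpl15, a large-subunit protein, had 2316, 2416, 2471 and 2448 in wild types and 2513, 2522, 2558 and 2483 in knockouts (adjusted p = 0.819 in limma). The Rpl11 partner Rpl5 overlapped, at 3956 ± 250 and 4022 ± 162. Rpl13a, which takes part in the translational silencing of inflammatory transcripts, was at 3356 ± 58.1 and 3492 ± 55.6. Rpl22 was at 1493 ± 31.0 and 1511 ± 73.0, and Rpl36a at 815 ± 29.3 and 846 ± 19.1.

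Among the small-subunit genes, Rps7 had the smallest p of the rule's rows and Rps13 the smallest of those found by ID. Rps7 had 2199, 2157, 2293 and 2238 normalized counts in wild types and 2406, 2410, 2544 and 2267 in knockouts. Knockout replicate 4 lay below wild-type replicate 3, and the log2 fold change was 0.11 ± 0.046 (SE, adjusted p = 0.753 in limma). Rps13 had 1918, 1687, 1818 and 1744 in wild types and 1891, 1987, 2067 and 1901 in knockouts. Wild-type replicate 1 lay above knockout replicates 1 and 4, and the log2 fold change was 0.13 ± 0.050 (SE, adjusted p = 0.753 in limma). Rps19, the gene most often mutated in Diamond-Blackfan anaemia in humans, was at 1590 ± 66.2 and 1682 ± 63.6, and its groups overlapped. Rps6, the substrate of the S6 kinases, was at 3665 ± 135 and 3715 ± 144. Rps27a, made as a fusion with ubiquitin, was at 1674 ± 119 and 1785 ± 51.5. The groups overlapped for both.

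The lowest estimates after Rpl3l belonged to small-subunit rows. Rps26, which touches the messenger RNA upstream of the start codon, had 1012, 1112, 1095 and 1050 normalized counts in wild types and 1017, 990, 962 and 1098 in knockouts. Its copy Rps26-ps1 had 585, 620, 621 and 574 in wild types and 542, 547, 536 and 594 in knockouts. In both rows knockout replicate 4 was the highest knockout and lay inside the wild-type range. The log2 fold changes were -0.071 ± 0.054 and -0.11 ± 0.058 (SE; adjusted p of 0.85 and 0.797 in limma). Rps14, which lies on the platform of the small subunit, was at -0.043, and its groups overlapped.

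Copies identical to their parents in coding sequence had nearly the same fold change, and so did Gm9396, which was not identical. Gm10275 held 0.967 to 0.982 times the Rpl12 value over the 8 libraries, with a log2 fold change of 0.081 beside 0.083, and Rpl27-ps3 held 0.982 to 0.994 times that of Rpl27, with 0.037 beside 0.035. Gm9396, with 4 mismatches to the Rpl12 coding sequence, held 0.536 to 0.578 times the Rpl12 value, with a log2 fold change of 0.084 beside 0.083. Gm10076 matched all 75 coding bases of Rpl41 but shares only 10.4% of its windows with it. It held 0.712 to 0.74 times the Rpl41 value, with a log2 fold change of 0.006 beside -0.005. Where the sequence is the parent's, expression of the copy cannot be told apart from that of the parent. Gm2000 stood higher than its parent, at 2.34 to 2.71 times Rpl35. It had 1590, 1621, 1578 and 1574 normalized counts in wild types and 1756, 1692, 1649 and 1663 in knockouts, with all knockouts above all wild types. Its log2 fold change was 0.087 ± 0.043 (SE, adjusted p = 0.796 in limma), and Rpl35 overlapped, at 648 ± 36.2 and 667 ± 40.7. With Rpl11, Gm2000 made 2 of 50 rows that were separate upward, where 2.03% of all tested genes were, and 0 of 50 were separate downward, where 1.74% were.

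Levels per kilobase of messenger RNA differed widely between genes whose proteins are needed in equal numbers. Here the mean normalized count over the 8 libraries was divided by the length of 1 annotated transcript per gene, which is approximate where other isoforms are used. The median of the 78 protein-coding genes was 2864 normalized counts per kilobase. The highest were Rps29 at 7521 and Rpl41, which encodes the smallest protein of the ribosome, at 7333. Among rows of the rule Rps4l at 80.8, Rps20 at 441.5, Rpl35 at 695 and Rps27l at 822 were low. The Rps20 model was 3706 bases long for a coding sequence of 357, so its value depends on that model.

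Rpl29 and Rps2, the lowest protein-coding genes per kilobase, were among those with many copies. Windows of 125 bases shared with another annotated gene made up a median of 22.05% of the messenger RNA over the rule's rows and 50% over the genes found by ID, and 9 of the 50 rows had none. The 6 genes whose windows occurred in more than 10 other genes had a median of 1069 normalized counts per kilobase. The 10 genes with no shared window had a median of 3157. Rps2, with windows in 29 other genes, had 122 normalized counts per kilobase and Rpl29, with windows in 15, had 82.1. Rpl21, with 28, had 799. Rps12, with 17, had 2522, so the number of such genes alone did not order the levels. This is a description over genes of the same libraries, which share depth and annotation.

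**Figure D3:**
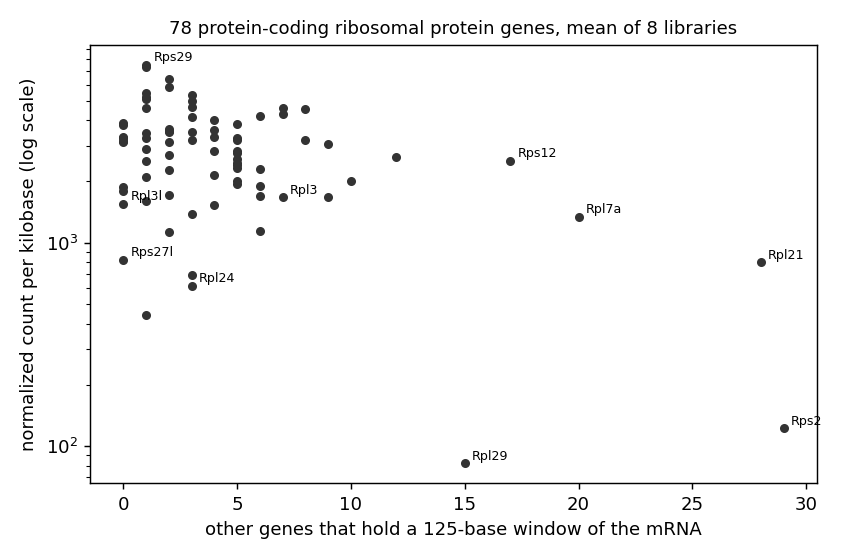
Mean normalized count per kilobase of messenger RNA (log scale) against the number of other annotated genes that hold at least 1 window of 125 bases of that messenger RNA, for the 78 protein-coding ribosomal protein genes. Rps2 at 122 and Rpl29 at 82.1 per kilobase lie far below the rest.

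Differences between libraries of the same genotype were as large as the difference between genotypes. The median log2 deviation of the 50 rows from the wild-type mean was -0.016, -0.014, 0.031 and -0.017 in wild types and 0.065, 0.016, 0.046 and -0.005 in knockouts. Wild-type replicate 3 therefore lay above knockout replicates 2 and 4. Knockout replicate 1 was the highest library in 16 rows, knockout replicate 3 in 14 and wild-type replicate 3 in 9. The lowest value fell to wild-type replicate 2 in 13 rows, to wild-type replicate 4 in 11, to wild-type replicate 1 in 9 and to knockout replicate 4 in 8. The rows moved together within a library, since 42 of 50 were above the wild-type mean in wild-type replicate 3 and 42 of 50 in knockout replicate 1.

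**Figure D4:**
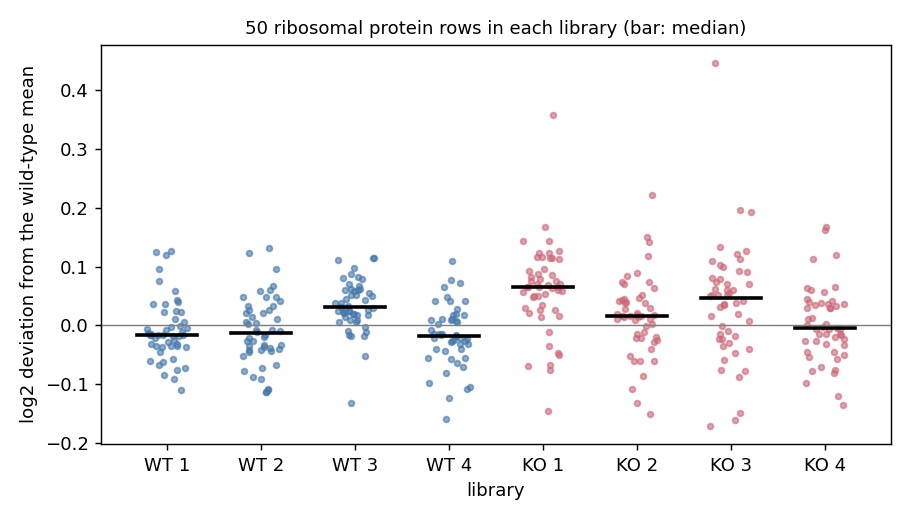
Log2 deviation of each of the 50 ribosomal protein rows from its wild-type mean in the 8 libraries (points, with the median as a bar). Wild-type replicate 3 at 0.031 lies between the knockout medians, which run from -0.005 to 0.065.

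The separation of the groups depended on the scale of the sum. The summed rows were 116500 ± 1920 normalized counts in wild types and 118400 ± 2070 in knockouts (SD, n = 4), a ratio of 1.0169 with overlapping groups. As a share of all gene counts they were 0.437%, 0.442%, 0.442% and 0.441% in wild types and 0.458%, 0.452%, 0.462% and 0.448% in knockouts. Here the groups did not overlap and the ratio was 1.0329. For the 78 protein-coding genes the same share was 0.643% to 0.646% and 0.654% to 0.678%, again separate, with a ratio of 1.0361. The total of normalized counts was itself 0.9846 times as high in knockouts as in wild types. Without mitochondrial genes and the Rn7s copies, abundant small cytoplasmic RNAs, the share of these 78 genes was 0.899% to 0.921% in wild types and 0.916% to 0.957% in knockouts. The ratio was then 1.0371, and the groups overlapped. Mitochondrial genes took 15.65% to 17.86% and 15.56% to 16.9% of the counts. When each library was scaled to its total, 42 of the 50 rows were above 0 with a median of 0.049, but the median of all tested genes then rose to 0.025 and 59.3% of them were above 0.

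**Figure D5:**
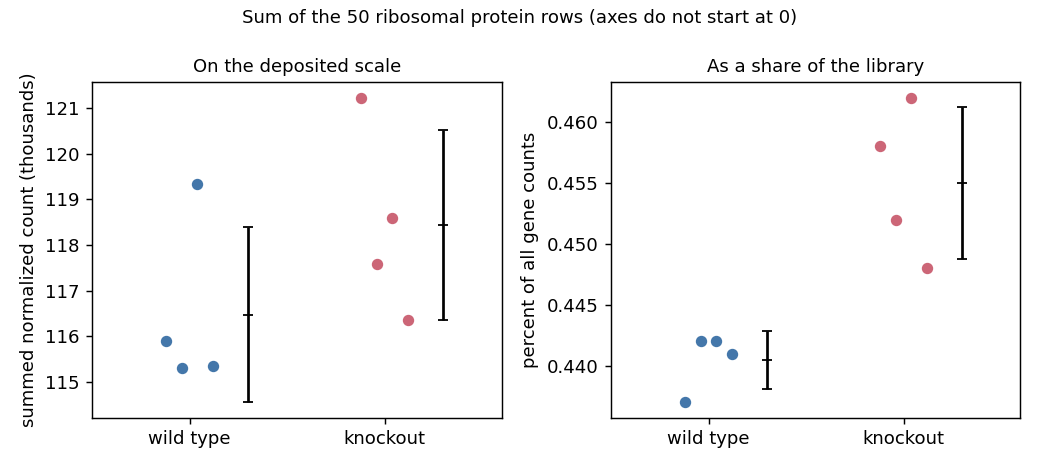
Sum of the 50 ribosomal protein rows in each library, left in units of 1000 normalized counts and right as a percentage of all gene counts, with mean and SD for 4 wild types and 4 knockouts; the axes do not start at 0. The groups overlap on the left and are separate on the right, at 0.437% to 0.442% and 0.448% to 0.462%.

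Genes that work with these proteins showed no call either. In every list that follows limma, edgeR and DESeq2 called 0 genes, where 0.0121%, 0.0121% and 0.139% of all tested genes were called. DESeq2 gave some listed genes, such as Rpl22l1, no adjusted p. Of all tested genes, 50.9% were above 0 and 6.26% had an unadjusted p under 0.05 in limma. Of 11 further ribosomal proteins with other names, such as Fau and Rack1, 9 were above 0 with a median of 0.04. At an unadjusted p under 0.05 there was 1 (9.09%). That was Rpl22l1, the paralog of Rpl22, at 148 ± 13.6 and 175 ± 9.26 normalized counts (adjusted p = 0.753 in limma). Of 77 ribosome biogenesis genes, 43 were above 0, the median was 0.014 and 4 (5.19%) had an unadjusted p under 0.05. Mrto4, an assembly factor that holds the place of the stalk, was at 203 ± 11.5 and 241 ± 11, and Polr1e, a subunit of RNA polymerase I, at 289 ± 42.1 and 347 ± 40.9. Neither passed (adjusted p of 0.669 and 0.753 in limma).

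A fixed list of the pyrimidine-tract class held mainly translation factors, with others such as Tpt1, Hnrnpa1 and the small nucleolar RNA host Gas5. It was above 0 in 9 of 22 genes, with a median of -0.014 and 2 (9.09%) at an unadjusted p under 0.05. The start sites of its genes were not examined one by one. The elongation factor Eef1a2, the form of adult muscle, was at 15362 ± 851 and 14136 ± 489, and the helicase Eif4a1 at 2892 ± 175 and 3161 ± 147 (adjusted p of 0.753 for each in limma). Of 26 initiation factors, 19 were above 0 with a median of 0.041. Of these, 1 (3.85%) had an unadjusted p under 0.05 in limma and 0 in edgeR and DESeq2. In these tools 6.26%, 6.31% and 4.57% of all tested genes did. Eif5, which triggers GTP hydrolysis at the start codon, was at 1970 ± 60.5 and 2106 ± 59.8.

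The list of regulators of ribosomal protein translation was mostly below 0. It mixes activators of mTORC1, such as Rptor, with inhibitors, such as Tsc1 and Tsc2, so its sign gives no direction for the pathway. Of 22 genes of the mTORC1 list 5 were above 0, with a median of -0.069, and 5 (22.7%) had an unadjusted p under 0.05 in limma, 4 in edgeR and 3 in DESeq2. Over all tested genes 50.9% were above 0, and 6.26%, 6.31% and 4.57% had an unadjusted p under 0.05 in these tools. Rptor, the scaffold of mTORC1, was at 984 ± 38.3 normalized counts in wild types and 887 ± 15.5 in knockouts, a log2 fold change of -0.15 ± 0.049 (SE, adjusted p = 0.670 in limma). Myc, a transcription factor that drives ribosome production, was low in both groups, at 46.8 ± 8.37 and 30.5 ± 6.55 (adjusted p = 0.670 in limma). Of 13 genes that host small nucleolar RNAs, 7 were above 0. Zfas1, one of them, was at 130 ± 15 and 106 ± 18.2 (adjusted p = 0.769 in limma).

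Markers of other cells gave 0 calls in limma, edgeR and DESeq2, where 0.0121%, 0.0121% and 0.139% of all tested genes were called. Of all tested genes 50.9% were above 0. All 10 macrophage markers were above 0, with a median of 0.146 and a summed level of 4525 to 6410 in wild types and 5102 to 5902 in knockouts. All 8 markers of dividing cells, which make ribosomes at a high rate, were above 0, with a median of 0.456. Their summed level was 476.5 to 696 in wild types and 422 to 1184 in knockouts. From the wild-type mean, the median log2 deviation of these 8 markers was 0.038, 0.308, -0.187 and -0.187 in wild types. In knockouts it was -0.379, 0.968, 0.698 and 0.673. Fibroblast markers gave 4 of 8 above 0, endothelial markers 6 of 9, lymphocyte markers 2 of 3, erythroid markers 0 of 6 and adipocyte markers 0 of 2. Smooth muscle markers were above 0 in 6 of 7, with a median of 0.186. Their summed level was 17450 to 18130 in wild types and 18550 to 19820 in knockouts, so that these sums did not overlap. The part of these cells in the ribosomal protein values was not tested.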

How the data were processed

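The authors deposited normalized counts per gene, a signal with 1 column per library. STAR, DESeq2 and mm10 are named, without a version, per the submitters' processing notes. The read counter and its treatment of shared reads were not given in the sources. Within 0.01 reads, 100% of values were whole reads divided by 1 factor per library. The authors also deposited a comparison with log2 fold changes, p-values and adjusted p-values.

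Genes with a mean of at least 10 (16590) were tested with limma 3.58.1 (trend, robust) on log2(normalized count + 1), which understates the change of low genes. Adjustment covered all tested genes. Alternatives included edgeR 4.0.16 and DESeq2 1.42.0 on recovered reads. Intervals are 95% intervals. P-values of limma, edgeR and DESeq2 set the difference between genotypes against the spread between animals of the same genotype, with information shared across genes. Names, lengths and transcripts came from GENCODE M21 (40254 of 41128 IDs matched) and start windows from RefSeq. Scripts were tested on simulated data.

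The members and lists were chosen with earlier results of these data known. Named genes were the stalk genes and Rpsa, paralogs, Rps6, Rps27a, Rpl13a, Rps19, Rpl5, Rpl11, Rpl22 and Rpl36a, the 5 largest, 5 smallest and 5 most significant changes, the 5 highest and 5 lowest levels per kilobase, the 3 most variable members, and 2 genes per list. Any other gene was picked with its values known, and some genes the rule names are not reported here. Replicate numbers come from the titles, which do not say what they stand for.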

Additional observations from a re-analysis of the deposited data

Results flagged for a closer look

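A value was picked out where the highest or lowest of 4 libraries of a genotype lay further from its neighbour than Dixon's 95% limit, as the gap divided by the range. Of 72 groups checked, 4 did, where about 1 in 20 is due to chance. The high library was wild-type replicate 3 in 3 of them. It had 2842 normalized counts of Rplp1, where the other wild types had 2707 to 2726 (gap 0.862 of the range). It had 1689 of Rps19, where the others had 1548 to 1569 (0.852). Its summed ribosomal protein rows were 119300, where the others were 115300 to 115900 (0.851). Knockout replicate 4 had 3336 normalized counts of Rpl10, where the other knockouts had 3830 to 3903 (0.872). No cause was tested.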

How the results depend on the processing

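With 4 animals per genotype, and 20284865 to 34742840 gene reads per library, the median SE of the log2 fold change of a ribosomal protein row was 0.046. The count of rows called was 0 of 50 under all alternatives run. Leaving out 1 library at a time gave a median log2 fold change of 0.013 to 0.039, 33 to 42 rows above 0 and a summed ratio of 1.0089 to 1.0252. The count of all genes past the threshold was 2, and it was 5 with no filter on low values, 4 with sample weights, 23 with DESeq2 and 1 to 6 with 1 library left out, 6 without wild-type replicate 2 and 4 without knockout replicate 4; the cause was not tested. With the genes found by ID added, 66 of 85 were above 0, since more genes are counted. That alternative, the rows under their own name only and the scaling to library totals were chosen after seeing the data. Median-ratio size factors were 0.973 to 0.9762 times those recovered from the table. The 26 single genes followed through 21 alternatives each kept their direction in all 545 fits, and their side of the threshold wherever an adjusted p was given. DESeq2 gave none for some of them, such as Rps4l and Rpl22l1. Myc was under the limit of a mean of at least 50 in 1 further alternative. The summed ratio was rerun under TMM factors (1.0145), recomputed size factors (1.0156) and library totals (1.0328), not under quantile normalization or the settings of the tests, which do not act on a sum.

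Libraries with the same replicate number did not deviate together (correlations of -0.038, 0.026, -0.032 and -0.069), so no pairing by number was visible. Such correlations cannot show whether same-numbered animals shared a litter or a preparation. With the replicate number as a block, 3 genes passed and 0 ribosomal protein rows did.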
